A study of Mus musculus with 8 samples.

Results

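The transcripts described here encode 8 peptidases of the enterocyte brush border (Mep1a, Mep1b, Anpep, Dpp4, Enpep, Ace, Xpnpep2 and Naaladl1) and the apical peptide transporter Slc15a1. They were taken by gene symbol, with earlier results of these data known. They are 9 of the 41128 gene symbols in the authors' deposited table. All 9 passed the filter on low values. Whole ileal tissue of 8 FVB mice, cut within 6 cm of the ileocecal valve, gave 1 RNA-seq library per mouse. The groups were Cftr -/- (KO, homozygous for the Cftrtm1Cam null allele) without antibiotics (n = 3), KO with ciprofloxacin at 0.3 g/L and metronidazole at 0.5 g/L in the drinking water (n = 1), Cftr N/N controls (WT) without antibiotics (n = 3), and WT with the same drugs (n = 1). Each KO mouse formed a couple with a sex-matched WT littermate, female in couples 1 and 3 and in the antibiotic couple and male in couple 2. All mice ate a low-fibre diet and had received an osmotic laxative, stopped more than 4 days before sampling, and the null allele is carried in every cell type. The labels used here give no age.

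Dietary protein reaches the small intestine as peptides cut by pancreatic proteases. Peptidases anchored in the microvillus membrane shorten these peptides to free amino acids and very short peptides. Slc15a1 (PEPT1) then carries the short peptides into the enterocyte together with protons, and cytosolic peptidases finish the digestion. Several of the same enzymes also act on peptide hormones, and some are made outside the epithelium, for example Ace in endothelium and Dpp4 in T cells.

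Values are the authors' RPKM-like values. Their unit is not named, and they are taken to be scaled by library size and gene length. Levels are set side by side between genes on that reading only. Judged by the values they share, couples 1 and 2 were normalized together, couple 3 apart and the antibiotic couple apart. The number of reads behind a value is unknown. Couple 3 lists 11931 genes above 0 in KO and 11912 in WT, against 20896 in each library of couples 1 and 2. Cftr, the targeted gene, had values of 3.19 ± 0.549 in untreated KO and 10.8 ± 1.39 in untreated WT ileum (SD, n = 3 each), and of 4.94 in KO and 13.8 in WT of the antibiotic couple. The epithelial markers were present as labelled: summed values of 10 markers such as Epcam and Krt8 were 5277 to 6929 in untreated KO and 4336 to 6842 in untreated WT libraries. In RNA of whole tissue, fewer cells of a type and less RNA per cell cannot be told apart. The WT library of the antibiotic couple lists Naaladl1 at exactly the value of 232 other genes in that column, so this value was not used.

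In untreated WT ileum all 9 transcripts were abundant. By mean value they ranked between 16 (Anpep) and 316 (Dpp4) of the 41128 symbols, and in untreated KO ileum between 23 (Anpep) and 743 (Mep1a). Anpep had 2139 ± 779 in untreated WT, followed by Naaladl1 with 1127 ± 464, Enpep with 476 ± 56.8, Mep1b with 435 ± 133, Mep1a with 336 ± 74.3, Ace with 256 ± 34, Slc15a1 with 233 ± 48.4, Xpnpep2 with 196 ± 40.1 and Dpp4 with 140 ± 33.3 (RPKM-like values, SD, n = 3). Of neighbours in this order, Naaladl1 and Enpep had ranges that did not overlap. The other neighbouring pairs overlapped, although Anpep stood above Naaladl1, Mep1a above Ace and Xpnpep2 above Dpp4 in all 3 WT libraries.

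Mep1a, the alpha subunit of the metalloprotease meprin, showed the largest difference among the 9 between untreated KO and WT ileum. It had 35.6, 43.1 and 117 in the KO libraries of couples 1, 2 and 3, against 257, 346 and 404 in the WT libraries. Every KO value lay below every WT value, and KO stood at 13.9%, 12.5% and 29% of its WT littermate. Mep1a lies on chromosome 17 at 43474324 to 43502812 (minus strand, GRCm38, GENCODE M21). Its log2 change was -2.52 (SE 0.44, 95% interval -3.55 to -1.49, n = 3 each) with an adjusted p of 0.0357 by limma, computed on log2(value + 1). Of the 9 genes Mep1a alone passed 0.05, as a lower gene, where 1.01% of all 11717 tested genes did, and 0 were higher, where 1.15% of all genes were. With the couple as a block its adjusted p was 0.0132. Without the block, the call was lost when the KO or WT library of couple 1 or of couple 2, or the WT library of couple 3, was left out (adjusted p = 0.0756 to 0.136).

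The RefSeq promoter window of Mep1a is shown because this gene had the largest change, and it spans chr17:43502724-43503023 on the minus strand of GRCm38.p6, from 250 bases before to 50 bases after the annotated start. Capitals mark the only match to TTTATG, whose reverse complement is CATAAA, the core of the motif of CDX, an intestinal transcription factor family.
Mep1a: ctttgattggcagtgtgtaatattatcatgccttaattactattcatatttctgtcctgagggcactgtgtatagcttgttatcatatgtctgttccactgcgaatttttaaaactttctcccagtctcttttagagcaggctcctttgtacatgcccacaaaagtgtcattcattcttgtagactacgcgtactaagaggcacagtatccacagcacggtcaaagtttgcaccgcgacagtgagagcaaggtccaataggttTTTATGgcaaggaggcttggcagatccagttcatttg
The match begins 14 bases after the start, and 11.85% of 32851 windows of this length hold such a match. The window holds no match to GTTAAT, a core of the HNF1 motif whose reverse complement is ATTAAC and which 7.1% of windows hold. It also holds no match to the HNF4 motif CAAAGTCCA, with the reverse complement TGGACTTTG, which 0.475% of windows hold. The windows of Anpep, Dpp4, Enpep, Ace (2 windows), Xpnpep2 and Slc15a1 hold none of these letter strings. The Anpep window (from 79848161) and the second Ace window (from 105974939) lie inside the GENCODE gene bounds. Which start is used in ileum was not tested. Naaladl1 had no entry, and the window of Mep1b is not reported here. A match is a description of letters, and a window without one says nothing of the factor.

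Mep1b, the beta subunit of meprin, did not follow its partner. It had 391, 305 and 679 in untreated KO and 417, 312 and 576 in untreated WT ileum of couples 1, 2 and 3, so that the groups overlapped. The log2 change was 0.04 (SE 0.38, limma adjusted p = 0.976), and the 95% interval of -0.84 to 0.92 takes in lower and higher levels alike. With the couple block the interval was -0.24 to 0.32. The gene is on chromosome 18.

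The ratio of the Mep1a value to the Mep1b value in the same library is not changed by a linear scaling of that library. The values look as after quantile normalization, which is not linear and can change it. The ratio was 0.0912, 0.141 and 0.173 in untreated KO and 0.615, 1.11 and 0.702 in untreated WT ileum of couples 1, 2 and 3. The mean was 0.135 ± 0.0412 in KO and 0.809 ± 0.265 in WT (SD, n = 3 each), and no KO ratio reached a WT ratio. In the antibiotic couple the ratio was 0.354 in KO and 0.737 in WT. That KO ratio lay above each untreated KO ratio and below each WT ratio. The ratio was formed after the values were seen, so it is a description with no test.

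**Figure D1:**
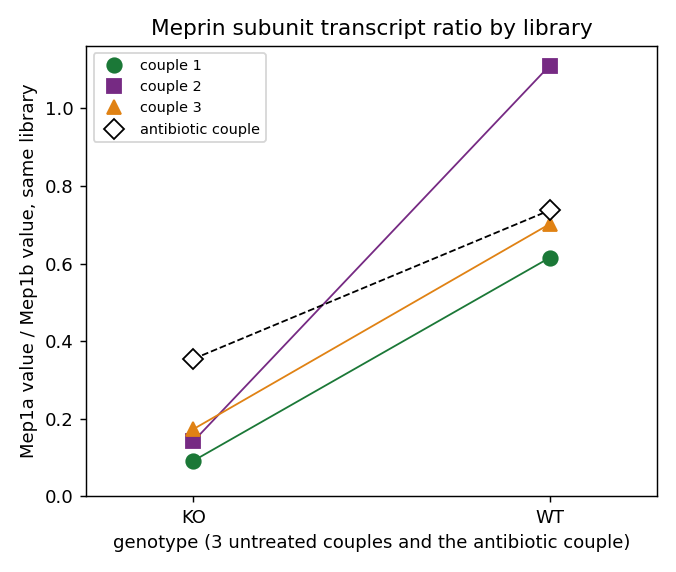
Ratio of the Mep1a value to the Mep1b value within each library (y axis, no unit), with KO left and WT right and a line joining littermates (filled symbols, untreated couples; open diamonds, antibiotic couple). The untreated KO ratios lie between 0.0912 and 0.173 and the untreated WT ratios between 0.615 and 1.11.

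Xpnpep2 is the membrane-bound aminopeptidase P, which removes the first residue of peptides with proline in the next position. It had 53.4, 73.1 and 106 in untreated KO and 159, 190 and 239 in untreated WT ileum of couples 1, 2 and 3. The groups did not overlap, and KO stood at 33.6%, 38.4% and 44.6% of WT, the narrowest spread of percentages among the 3 peptidases with the largest changes. The log2 change was -1.36 (SE 0.30), with a limma adjusted p of 0.0728 without and 0.00835 with the couple block. The gene lies on chromosome X at 48108725 to 48136981 (plus strand), and couple 2 was male in both genotypes. Its promoter window, chrX:48108475-48108774 on the plus strand, is shown beside that of Mep1a because the levels of these 2 genes ran most closely together (Pearson r = 0.988 over the 6 untreated libraries). It contains none of the letter strings searched, hence no capitals.
Xpnpep2: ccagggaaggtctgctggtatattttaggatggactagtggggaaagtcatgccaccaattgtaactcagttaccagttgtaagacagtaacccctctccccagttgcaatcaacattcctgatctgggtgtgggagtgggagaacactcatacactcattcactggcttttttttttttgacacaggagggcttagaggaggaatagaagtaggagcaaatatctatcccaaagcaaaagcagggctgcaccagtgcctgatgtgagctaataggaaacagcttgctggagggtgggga

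Naaladl1, an ileal membrane peptidase related to glutamate carboxypeptidase, had 231, 379 and 596 in untreated KO and 642, 1567 and 1172 in untreated WT ileum of couples 1, 2 and 3. The highest KO value came close to the lowest WT value but did not reach it. KO stood at 36%, 24.2% and 50.9% of the littermate. On the log2 scale this was -1.50 (SE 0.46), and limma gave an adjusted p of 0.167 without and 0.0225 with the couple block. The WT libraries differed more among themselves for this gene than for any other of the 9 (coefficient of variation 41.2%). Naaladl1 lies on chromosome 19 at 6105782 to 6115792 (plus strand).

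Ace, a dipeptidyl carboxypeptidase that also makes angiotensin II, had 132, 140 and 156 in untreated KO and 225, 252 and 293 in untreated WT ileum of couples 1, 2 and 3. KO stood at 58.7%, 55.7% and 53.2% of WT, the narrowest range of percentages among the 9 genes. The log2 change was -0.84 (SE 0.21), with a limma adjusted p of 0.102 without and 0.0119 with the couple block. Ace lies on chromosome 11 at 105967945 to 105989964 (plus strand) and shares 295 exon bases with the antisense gene Gm11651, which was listed at no more than 0.06 in these libraries. An antisense gene, Gm13561, likewise shares 232 exon bases with Dpp4 and was listed at 0 in the untreated libraries.

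Enpep, the aminopeptidase that removes acidic residues, had 326, 316 and 423 in untreated KO and 431, 458 and 540 in untreated WT ileum of couples 1, 2 and 3. The 2 groups stood just apart. KO was 75.6%, 69.1% and 78.4% of WT. The fitted difference was -0.43 on the log2 scale (SE 0.25), where limma gave an adjusted p of 0.452 without and 0.0416 with the couple block. It is on chromosome 3 at 129269175 to 129332720 (minus strand).

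Anpep, aminopeptidase N, and Dpp4, which removes dipeptides ending in proline or alanine, overlapped between the genotypes. Anpep had 1059, 1852 and 2404 in untreated KO and 1288, 2818 and 2311 in untreated WT ileum of couples 1, 2 and 3, with KO above WT in couple 3. Dpp4 had 94.9, 93.4 and 154 in untreated KO and 146, 104 and 170 in untreated WT ileum. The log2 changes were -0.28 (95% interval -1.35 to 0.80, limma adjusted p = 0.829) for Anpep and -0.30 (-0.97 to 0.37, adjusted p = 0.674) for Dpp4. With the couple block the intervals were -0.71 to 0.15 and -0.63 to 0.03, and neither gene passed. Anpep is on chromosome 7 at 79821803 to 79861059 and Dpp4 on chromosome 2 at 62330073 to 62412231, both on the minus strand.

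The transporter Slc15a1 had 122, 138 and 185 in untreated KO and 200, 289 and 211 in untreated WT ileum of couples 1, 2 and 3. All KO values were below all WT values, but the deficit was uneven: KO stood at 61%, 47.8% and 87.6% of the littermate. The log2 change of -0.65 (SE 0.26) had a limma adjusted p of 0.269 without and 0.0683 with the couple block. It passed with the block when couple 3 was left out (log2 change -0.88, adjusted p = 0.046). It did not pass with the block without couple 1 or without couple 2 (limma adjusted p = 0.17 and 0.18). These fits were chosen after seeing the data. Slc15a1 is on chromosome 14 at 121459621 to 121505252 (minus strand).

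**Figure D2:**
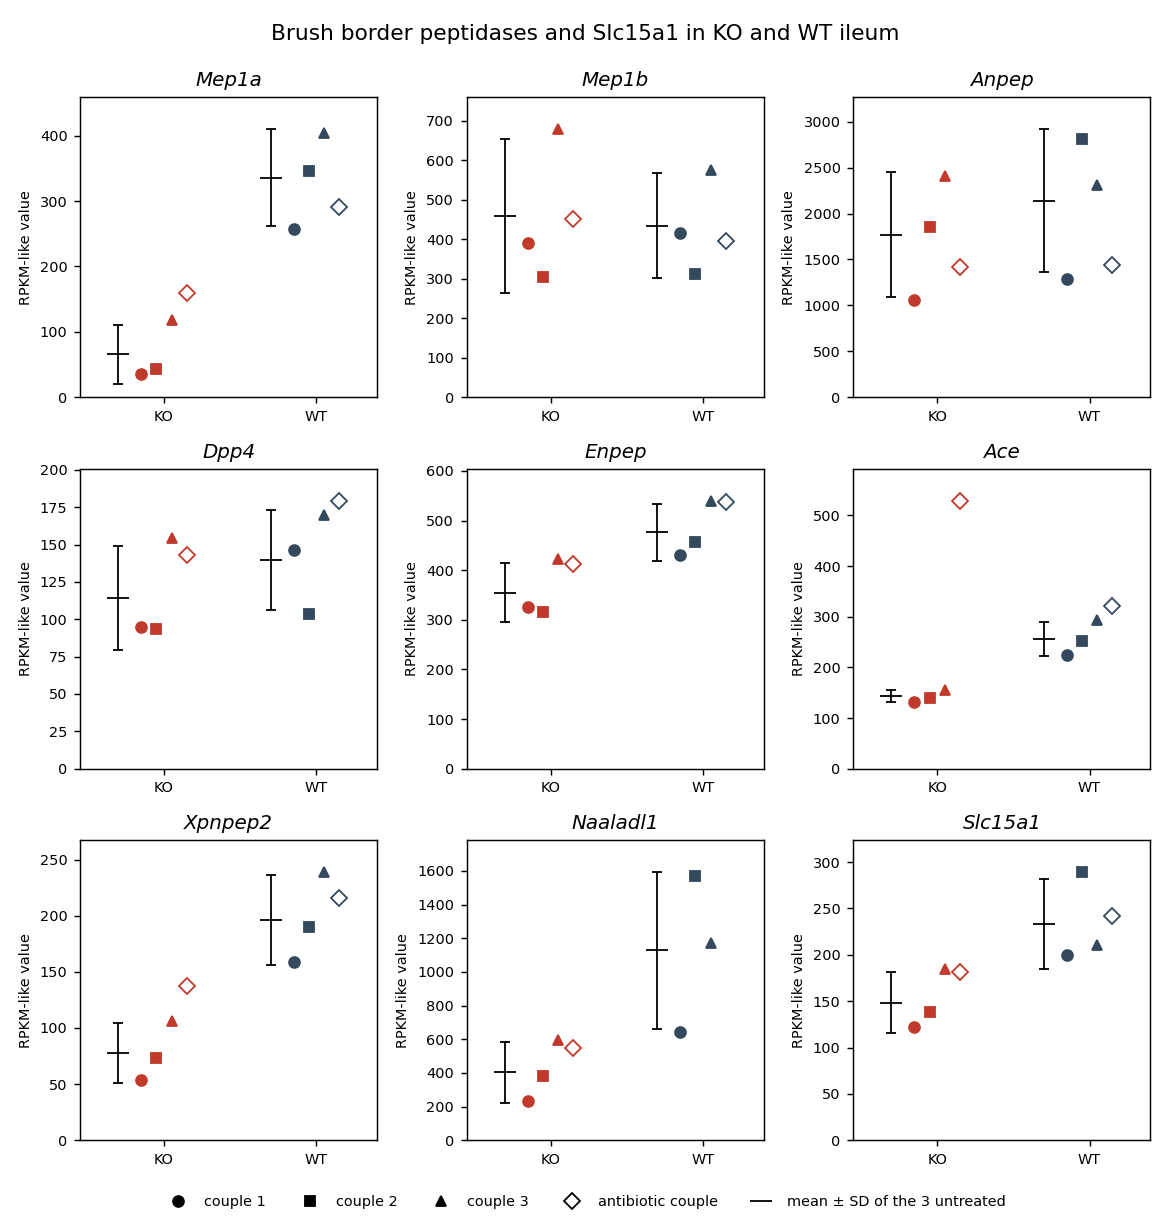
RPKM-like values (y axes, linear from 0) of the 9 genes in each library, KO left and WT right, with symbols for the couple (open diamonds, antibiotic couple) and bars for the mean ± SD of the 3 untreated libraries. Untreated KO and WT points are apart for Mep1a, Enpep, Ace, Xpnpep2, Naaladl1 and Slc15a1 and overlap for Mep1b, Anpep and Dpp4.

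Across the 9 genes, all KO libraries lay below all WT libraries in 6, where 12.1% of all tested genes did so, and all KO lay above all WT in 0, where 10.4% of all tested genes did so. KO was below WT in all 3 couples in 7, where 32.5% of all tested genes were, and above WT in all 3 in 0, where 28.1% were. The 9 were chosen with earlier results of these data known, and some moved together (Pearson r up to 0.988 over the 6 untreated libraries). The shares in this paragraph are therefore descriptions, and the 9 genes are not separate pieces of evidence. The median log2 change of the 9 was -0.65, against -0.01 over all tested genes. Within couples 1, 2 and 3 the median log2 ratio of the 9 was -0.71, -0.84 and -0.35, against -0.02, 0.003 and -0.03 over all tested genes. With the couple block 5 of 9 passed as lower (Mep1a, Xpnpep2, Ace, Naaladl1 and Enpep), where 9.91% of all tested genes did, and 0 as higher, where 8.4% did. Leaving out couple 1 left 2 of these calls, Ace and Xpnpep2, where 263 of 11103 genes were lower. Mep1a then had an adjusted p of 0.0516 by limma with the block. Enpep did not pass in that fit without couple 1, 2 or 3 (limma adjusted p = 0.104, 0.143 and 0.121). These fits with the block and without a couple were chosen after seeing the data. With each library centred on its epithelium markers and no block, Mep1a (limma adjusted p = 3.2e-05), Xpnpep2 (0.00262) and Naaladl1 (0.0121) passed as lower, where 1.17% of all tested genes did, and 0 as higher, where 1.13% did. With both the centring and the block, Mep1a, Xpnpep2, Ace, Naaladl1 and Slc15a1 passed as lower, where 6.82% of all tested genes did, and 0 as higher, where 4.86% did.

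**Figure D3:**
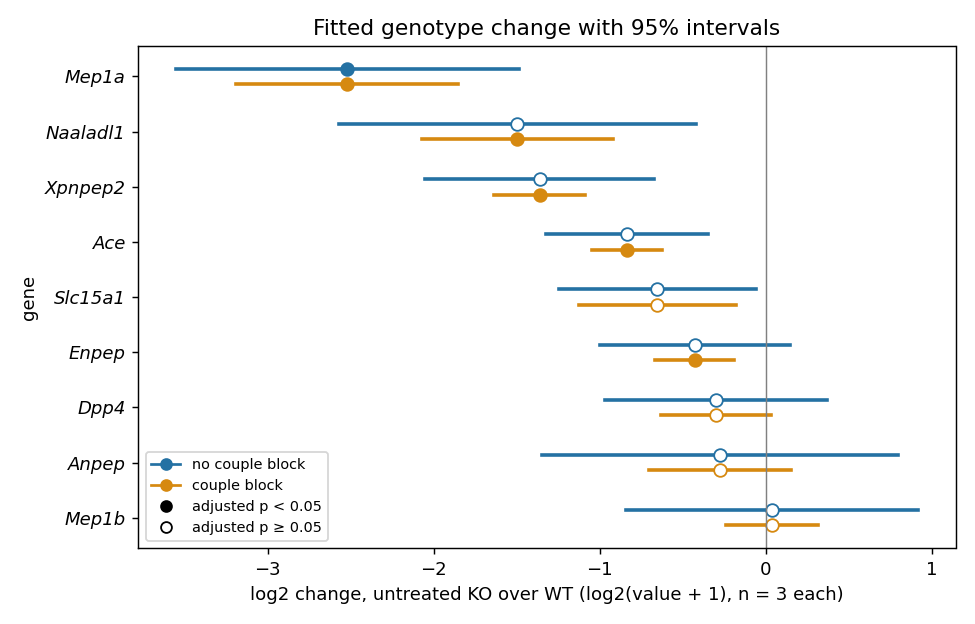
Fitted log2 change of untreated KO over WT (x axis, on log2(value + 1), n = 3 each) with 95% intervals for the 9 genes, without the couple block (blue) and with it (orange). Filled points have an adjusted p under 0.05: Mep1a in both fits, and Naaladl1, Xpnpep2, Ace and Enpep with the block.

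In the antibiotic couple, KO stood below WT for 6 of the 8 genes with a usable value in both libraries, where 56.6% of all genes compared did. The couple has 1 library per genotype, so its ratios have no replicate check. Mep1a had 160 in KO and 291 in WT, so that KO stood at 54.9% of WT, above its percentages in the 3 untreated couples. Xpnpep2 had 137 in KO and 216 in WT (63.7% of WT), also above its untreated percentages. Enpep (413 in KO and 538 in WT), Slc15a1 (181 in KO and 242 in WT) and Dpp4 (143 in KO and 179 in WT) had ratios within the range of the untreated couples. Anpep (1421 in KO and 1442 in WT) and Mep1b (451 in KO and 395 in WT) also had ratios within that range. Naaladl1 had 550 in KO of this couple, within its untreated KO range, and no ratio could be formed.

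Ace went against its untreated pattern. It had 529 in KO and 320 in WT of the antibiotic couple, so that KO stood at 165% of its littermate. The KO value was 3.4 times the highest untreated KO value, although these libraries appear to have been normalized apart. Of the 6 genes below WT in all 3 untreated couples and measured in both antibiotic libraries, Ace was the only 1 above WT there, where 35.1% of all such genes were. In 3 of the 6 (Mep1a, Ace and Xpnpep2) the log2 ratio of the antibiotic couple lay above that of each untreated couple, where 66.6% of all such genes did, so this share is not high for the table.

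The test of whether the genotype difference depended on antibiotics called 0 of 8 genes by limma, with or without the couple block, and 0 of 11534 genes in all (0% in both fits). At an unadjusted p under 0.05, 1 of the 8 (Ace) and 482 of all genes passed without the block, and 3 of the 8 and 1851 of all genes with it. For Ace the antibiotic minus untreated difference of log2 ratios was 1.56 (SE 0.43, adjusted p = 0.788), with SE 0.16 and adjusted p = 0.0863 with the couple block. For Mep1a it was 1.66 (SE 0.89, adjusted p = 0.999; adjusted p = 0.254 with the block). Each antibiotic group has 1 library, so the spread comes from the untreated ones.

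**Figure D4:**
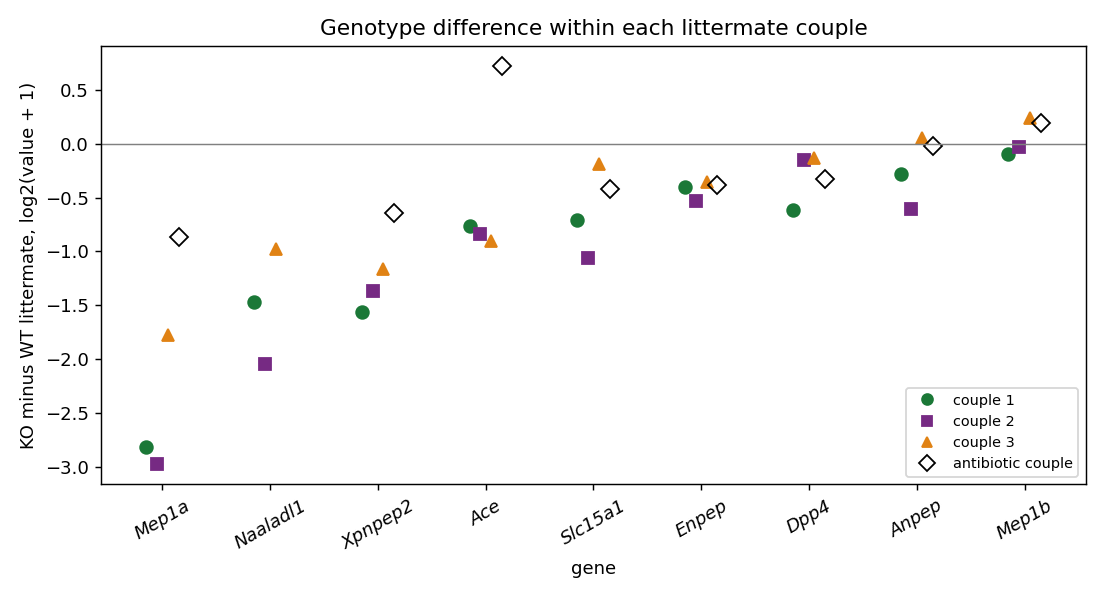
Difference between each KO mouse and its WT littermate in log2(value + 1) (y axis) for the 9 genes (x axis, ordered by fitted change), with filled symbols for untreated couples and open diamonds for the antibiotic couple. Ace lies between -0.91 and -0.76 in the untreated couples and at 0.72 in the antibiotic couple; the Naaladl1 diamond is missing because the WT value was not used.

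Levels with and without antibiotics can only be set side by side, because treatment, litter and normalization coincide and cannot be told apart. In KO, the antibiotic library was above the untreated range for Mep1a, Ace and Xpnpep2 and within it for the other 6 genes. In WT, it was above the untreated range for Dpp4 (179 against 104 to 170) and Ace (320 against 225 to 293) and within it for the other 6 genes with a usable value.

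Other genes of peptide digestion and uptake were taken as lists. Of 8 tested peptidases of the cell surface and secretory pathway (13 of 14 listed symbols were in the table, and Folh1 was at 0 throughout), 0 passed without and 2 with the couple block, both lower (Dpep1 and Cpm), where 9.91% of all tested genes were lower and 8.4% higher with the block. The median log2 change of these 8 was -0.15. The smallest p was that of Cpm, carboxypeptidase M, with 1.56, 1.53 and 1.64 in untreated KO and 3.36, 3.72 and 2.37 in untreated WT ileum of couples 1, 2 and 3 (limma adjusted p = 0.109 without and 0.0388 with the block). Dpep1, a membrane dipeptidase, had 80.4, 130.2 and 199 in untreated KO and 137, 257 and 242 in untreated WT ileum (fitted -0.67 on the log2 scale, limma adjusted p = 0.453 without and 0.0473 with the block). KO was below its littermate in each couple for both genes. Mme (neprilysin, an endopeptidase) had 73.3, 61.8 and 82.7 in untreated KO and 82.6, 68.7 and 102 in untreated WT ileum, again lower in each couple (limma adjusted p = 0.709 without and 0.12 with the block). In the antibiotic couple Mme had 162 in KO and 129 in WT, so that KO stood above WT there. For Dpep1 (106 in KO and 172 in WT) and Cpm (1.73 in KO and 2.4 in WT) KO stayed below WT in that couple. Mme was named here after its values were seen.

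A further list held mainly cytosolic peptide hydrolases, with some aminoacylases. Of its 19 tested genes, 0 passed without and 3 with the couple block, all lower, where 9.91% of all tested genes were. The median log2 change of the 19 was -0.03. The 3 were Cndp2, a dipeptidase (log2 change -0.79, limma adjusted p = 0.0167 with the block), Pepd, which splits dipeptides ending in proline (-0.63, adjusted p = 0.0215 with the block), and Acy3, an aminoacylase (-0.77, adjusted p = 0.012 with the block). Cndp2 had 312, 291 and 501 in untreated KO and 558, 531 and 791 in untreated WT ileum of couples 1, 2 and 3.

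Among 9 genes of peptide transport and its proton supply, Pdzk1 alone was called lower without the block, where 1.01% of all tested genes were. It encodes a PDZ scaffold that binds apical transporters. Pdzk1 had 20.8, 32.4 and 41.5 in untreated KO and 119, 102 and 139 in untreated WT ileum of couples 1, 2 and 3. The groups were far apart, with a fitted difference of -1.93 on the log2 scale (SE 0.27, limma adjusted p = 0.0185). With antibiotics Pdzk1 had 69 in KO and 96.1 in WT. With the couple block Slc9a3r1 (NHERF1, a scaffold of the same kind; log2 change -0.64, adjusted p = 0.0234) and Slc9a3r2 (-0.57, adjusted p = 0.0462) also passed, which made 3 of the 9 lower, where 9.91% of all tested genes were. Slc9a3 (NHE3), the sodium/proton exchanger that restores the proton gradient used by Slc15a1, had 17.2 ± 2.95 in untreated KO and 16.3 ± 3 in untreated WT ileum (SD, n = 3 each; limma adjusted p = 0.895).

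Genes of the microvillus core and its protocadherin links had a median log2 change of -0.21 over 15 tested genes. None passed without the block by limma (0 at adjusted p under 0.05), and with it 5 were lower (Vil1, Myo1a, Cdhr2, Cdhr5 and Myo7b) and 1 higher (Baiap2l1), where 9.91% of all tested genes were lower and 8.4% higher. Vil1, the actin bundler villin, had 467, 477 and 618 in untreated KO and 620, 710 and 911 in untreated WT ileum of couples 1, 2 and 3. Myo7b, a myosin of the links between microvilli, had the smallest p of that list (log2 change -0.69, limma adjusted p = 0.242 without and 0.0323 with the block). The 10 epithelium markers had a median of 0.06, with 0 called in either fit. The smallest p in that list was that of Cldn3, a tight junction claudin (log2 change -0.24, adjusted p = 0.768).

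Markers of other cells were summed in each library, and their part in the values above was not tested. The summed value of 10 T cell markers was 70.4 to 80.2 in untreated KO and 26.2 to 35.7 in untreated WT libraries (median log2 change 1.05). Of the 10, 1 was higher, Cd3g, where 1.15% of all tested genes were, and 4 with the block, where 8.4% were. The sum of 10 endothelium markers was 13.9 to 23.7 in untreated KO and 24.1 to 29.4 in untreated WT libraries (median log2 change -0.40 over 8 tested, 0 called). With the block 2 of the 8 were lower, Kdr and Cdh5, where 9.91% of all tested genes were. Kdr was at -0.90 on the log2 scale, with a limma adjusted p of 0.123 without and 0.0265 with the block. The sum of the macrophage and dendritic cell markers was 143 to 237 in untreated KO and 84.2 to 113 in untreated WT libraries. Of 9 tested, 1 was higher, Cd14, where 1.15% of all tested genes were, and 3 with the block, where 8.4% were. Of these 9 markers 4 had a fitted change below 0, and their median was 0.35. In the antibiotic couple the T cell sum was 56.2 in KO and 8.52 in WT and the endothelium sum 23.7 in KO and 21.7 in WT. Pericyte and smooth muscle markers summed to 404 to 670 in untreated KO and 494 to 754 in untreated WT libraries, and fibroblast markers to 81.9 to 174 in KO and 137 to 162 in WT. Their median log2 changes were -0.52 over 9 tested genes and -0.50 over 8, of which 5 and 8 were fitted below 0, beside the -0.65 of the 9 peptidase and transporter genes. Without the block 0 were called in both lists. With it Rgs5 was lower, 1 of 9 tested pericyte and smooth muscle markers, where 9.91% of all tested genes were. Its log2 change was -0.52 (limma adjusted p = 0.0268 with the block). The smallest p without the block were those of Pdgfrb (log2 change -0.92, adjusted p = 0.12) and Col6a1 (-1.07, adjusted p = 0.153). Of 12 crypt and proliferation markers 0 were called without the block and 7 were higher with it, where 8.4% of all tested genes were (smallest p, the kinase gene Cdk1: log2 change 0.58, adjusted p = 0.169 without and 0.0276 with the block), and their sum was 283 to 352 in untreated KO and 249 to 323 in untreated WT libraries. None of these marker lists had a gene at 0 in all 8 libraries.

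**Figure D5:**
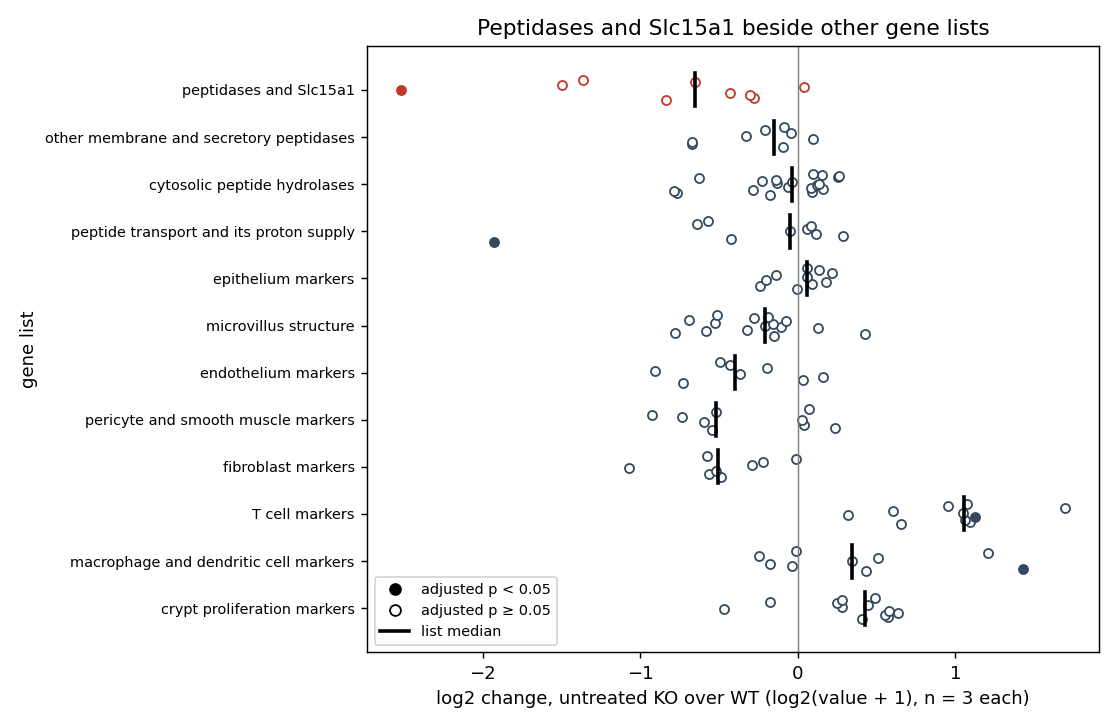
Fitted log2 change of untreated KO over WT (x axis, on log2(value + 1), n = 3 each) for the 9 genes (red) and for the tested genes of each other list (dark points), with the median of each list as a black bar. Filled points have an adjusted p under 0.05 without the couple block: Mep1a, Pdzk1, Cd3g and Cd14; the median is -0.65 for the 9 genes and 0.06 for the epithelium markers.

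For each of the 9 genes, the other tested gene with the highest Pearson r of log2(value + 1) over the 6 untreated libraries was looked up. This describes 6 libraries that share litters and normalization. A high r does not mean a similar level or size of change: Snx19 had a log2 change of -0.24 and Naaladl1 -1.50. The genes found were Fabp6 for Mep1a (r = 0.998), Abcg2 for Mep1b (0.999), P2ry2 for Anpep (0.996), Zfyve21 for Dpp4 (0.996) and Plbd1 for Enpep (0.994). For the others they were 4732463B04Rik for Ace (0.999), Guca2a for Xpnpep2 (0.996), Snx19 for Naaladl1 (0.997) and RP23-185G9.3 for Slc15a1 (0.988). Among the 9 themselves the closest pair was Mep1a and Xpnpep2 (0.988), and the lowest r was that of Mep1b and Slc15a1 (0.0616).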

How the data were processed

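Libraries were sequenced on Illumina HiSeq 2000 and Ion Proton instruments, and the authors mapped the reads to GRCm38 (release 76) with CLC Genomics Workbench 7.5 at default parameters, per the labels' series design text. Neither the counting rule and normalization nor each library's instrument is given in the sources used here. The authors' deposited values are taken as RPKM: they are not whole numbers, the libraries sum to 346794 to 397082, and log2 values fell with log2 exon length (slopes -0.54 to -0.36). Sorted values are identical across the 4 libraries of couples 1 and 2, and 96.7% and 93.5% of distinct values are shared within couple 3 and within the antibiotic couple, as after quantile normalization in 3 sets. Depth is therefore unknown. The scale of all fits is log2(value + 1), on which low genes show too small a change. A gene entered when 3 or more libraries reached a value of 1. The fits used limma 3.58.1 with a mean-variance trend (R 4.3.3), no couple block, and p-values adjusted by Benjamini and Hochberg's method over every gene entered, called under 0.05. The dependence on antibiotics was fitted over 8 libraries with 1 mean per group, leaving out 405 genes with faulty values in the WT antibiotic column (358 sharing a value, 45 listed at 0 while KO was at least 1, and 2 far below the littermate and the untreated range). The labels state that couples are littermates sampled within 20 min, and couple members deviated together (r = 0.622, 0.637 and 0.508 across genes in couples 1, 2 and 3), so the couple was used as a block in an alternative fit. That block also absorbs the normalization set. The genes, lists and tests were chosen with earlier results of these data known. Named genes are the 9, any listed gene called or else the smallest p of its list, and the gene with the highest Pearson r to each of the 9. Other genes named with the couple block, and markers given as examples, were chosen after the values were seen. The limma fits were tested on simulated data. Promoter sequences are RefSeq's (GRCm38.p6). Protein sequences were not used here, and 1 gene of a list is not reported here.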

Additional observations from a re-analysis of the deposited data

Results flagged for a closer look

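Each result here was picked because the KO to WT difference in the antibiotic couple ran opposite to that in all 3 untreated couples. With 1 antibiotic couple, and with no call by limma in the test of the difference (0 of 11534 genes), none of these is a tested difference. Of the 40 named genes with values in both kinds of couple, 6 did so. Mme is among these 6 and was named after its values were seen, so the count is partly set by that choice. Such a turn was common in the table: 35.1% of the 3764 genes below WT in the 3 untreated couples were above WT in the antibiotic couple. That share covers only this direction and only genes below WT in all 3. The 6 of 40 counts both directions over all named genes, so these shares cannot be set against each other.

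Ace was 0.72 log2 units higher in KO than in WT in the antibiotic couple, and lower in KO in each untreated couple. Mme (0.33) was likewise higher in KO in the antibiotic couple only. The same held for the noncoding gene 4732463B04Rik (0.30), which tracked Ace in the untreated libraries, for RP23-185G9.3 (0.48) and, by a small margin, for Cldn3 (0.059). The cell cycle kinase gene Cdk1 was lower in KO in the antibiotic couple (-0.42) and higher in KO in each untreated couple.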

How the results depend on the processing

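Of the 9 genes, 1 was called lower in untreated KO without the block. That count was 5 with the couple block and 3 with the 6 libraries quantile normalized together. It was 3 when centred on the epithelium markers and 5 when so centred with the couple block (the last chosen after seeing the data). Of all 11717 tested genes, 1161, 120, 137 and 799 were called lower in these settings, in this order. The count of the 9 was 0 without the filter on low values, where 4 of 23285 tested genes were lower. In the fit of all 8 libraries, which Naaladl1 did not enter, it was 0 of 8, where 42 of 11534 genes were lower. With a library left out and no block it was 0 or 1, where 21 to 69 genes in all were lower. With a couple left out and no block it was 0, and so was the count over all genes, so it says nothing of the 9. With the block it was 2, 4 and 5 without couples 1, 2 and 3, in fits likewise chosen after seeing the data. There 263 of 11103, 221 of 11174 and 275 of 11199 genes were lower, and the last 5 hold Slc15a1 in place of Enpep. The 5 after centring with the block also hold Slc15a1 in place of Enpep. No setting called any of the 9 higher, and the dependence on antibiotics gave 0 calls under each alternative. Changes of sign occurred only when libraries were left out. The untreated log2 change then ranged from -0.29 to 0.29 for Mep1b (-0.061 without couple 3, with or without the block) and from -0.61 to 0.054 for Anpep. The antibiotic minus untreated difference ranged from -0.10 to 0.48 for Mep1b, from -0.076 to 0.58 for Anpep, from -0.18 to 0.21 for Dpp4 and from -0.045 to 0.18 for Enpep. The cause of these moves was not tested. Depth is unknown, so no counting error could be given.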
